A study of Mus musculus with 4 samples.

Results

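To see how chronic amiodarone changed gene expression across the whole mouse lung transcriptome, 1 lung RNA-Seq library from amiodarone-treated mice was compared with 1 library from vehicle-treated mice. The comparison took every gene that reached 1 FPKM in one library or both, which kept 13402 of the 17780 genes in the table, or 75.38%. FPKM counts fragments scaled to transcript length and library size, so levels of different genes can be set side by side on it; the deposited values carry no unit and were read as FPKM. All mice were male and of the strain C57BL/6 by the labels (C57BL/6J in the methods), bought at 6 to 7 weeks of age, with no transgene or deletion named. The series has 4 libraries, 1 for each group: vehicle (a carboxymethylcellulose suspension without drug), amiodarone (300 mg/kg by mouth, 5 times per week), dabigatran (60 mg/kg, same schedule) and amiodarone + dabigatran. The labels give 28 days of treatment for every group, whereas the methods place the lung tissue at day 26. Nothing states whether a library came from 1 mouse or from a pool.

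Amiodarone is an iodinated, lipophilic antiarrhythmic drug that is trapped in lysosomes, where it slows the breakdown of phospholipid. In the lung it is known for foamy macrophages filled with undigested lipid and for inflammation that can end in interstitial lung disease. Dabigatran is an inhibitor of thrombin. Interferons, glucocorticoids, sterols and lysosomal stress each act on a well-known set of target genes, so the genome-wide comparison can be read set by set.

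Each gene is given as its FPKM, as log2((amiodarone + 1)/(vehicle + 1)), here the log2 difference, and as the ratio of FPKM with a 95% counting interval from the reads of both libraries. The interval covers counting error only, since reads are not independent molecules and mice were not replicated within a group. No p-value can be given with 1 library a side. A gene is called higher or lower when the log2(FPKM + 1) scale shows at least 2-fold. As a second reading, the same difference was taken between the amiodarone + dabigatran library and the dabigatran library, a pair that shares no library with the main comparison but carries dabigatran on both sides.

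The libraries held 17498486 reads for vehicle and 18725403 for amiodarone, and 17752873 and 18903401 for dabigatran and the combination. The lung label was borne out by its markers: surfactant protein gene Sftpc was at 20077 FPKM in vehicle and 19587 in amiodarone, and the type 1 cell gene Ager at 2250 and 2287. Genes of the heart muscle were present in all 4 libraries, with a summed level of 2416 FPKM in vehicle, 1304 in amiodarone, 1670 in dabigatran and 1158 in the combination. Haemoglobin and other red cell genes summed to 15880, 21520, 17650 and 8611 FPKM in the same order. Heart muscle and red cell transcripts therefore differed in level between the libraries, and their part in the other results was not tested.

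Across all genes, differences were small and slightly to the lower side. The median log2 difference was -0.05, the central 95% of genes lay between -0.67 and 0.85, and 5501 genes were higher against 7857 lower. These FPKM were not rescaled. The median ratio of a library to the mean over libraries was 1.01 for vehicle and 0.976 for amiodarone. A lean to the lower side of this size, also in the interval counts below, was not separated from library scaling. Called genes numbered 250 on the higher side (1.87% of genes tested) and 73 on the lower side (0.545%). All 250 and all 73 had a counting interval that excluded a ratio of 1, but so did many genes with small differences: the interval lay above 1 for 2625 genes (19.6%) and below 1 for 4037 (30.1%). Among the called genes, 87 of the higher ones passed 3-fold and 6 passed 8-fold, whereas 7 of the lower ones passed 3-fold and none passed 8-fold. In whole lung, fewer cells of a type and less RNA per cell cannot be told apart.

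**Figure D1:**
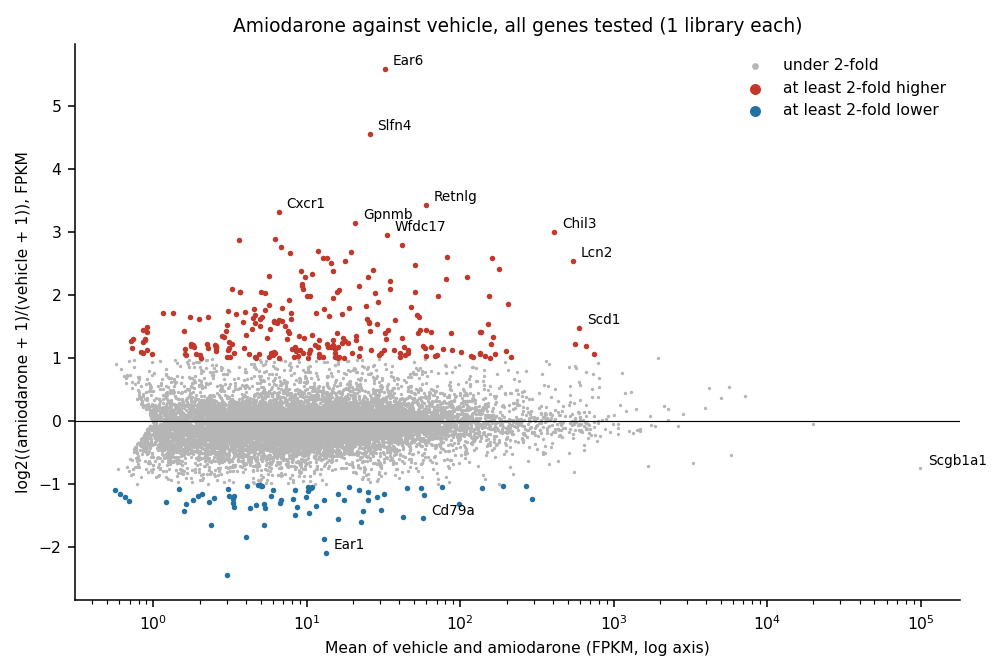
Log2 difference of amiodarone minus vehicle (vertical axis) against the mean FPKM of both libraries (horizontal log axis) for the 13402 genes tested, 1 point a gene. The 250 genes at least 2-fold higher reach further from 0 than the 73 genes at least 2-fold lower, and Scgb1a1, at the far right, sits at -0.75.

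The 15 largest differences on the higher side, among the 7256 genes that reached 10 FPKM, held 4 genes of the neutrophil list, 2 of the alveolar macrophage list and 5 that were in none of the lists used here. Ear6, a ribonuclease of the eosinophil-associated family, was at 0.35 FPKM in vehicle (4 reads), 0 in dabigatran, 63.97 in amiodarone (786 reads) and 31.0 in the combination. Slfn4, a myeloid Schlafen gene, was at 1.16 and 1.12 FPKM in the vehicle and dabigatran libraries, 50.21 in amiodarone and 14.86 in the combination, a ratio of 43.3 to vehicle (34.1 to 55.8). In both genes the 2 libraries with amiodarone stood above the 2 without. Ear genes have close copies among which reads can be split, so the level of a single member is uncertain.

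Gpnmb, a lysosomal glycoprotein of lipid-laden macrophages, was at 3.38 and 4.30 FPKM without amiodarone and at 37.89 and 37.03 with it, an 11.2-fold ratio in the main pair (9.77 to 12.9). Chil3, the chitinase-like protein Ym1 of alternatively activated macrophages, went from 90.27 FPKM in vehicle to 731.2 in amiodarone, and from 113.43 to 940.25 in the dabigatran pair. Ctsk, a lysosomal cysteine protease, was at 9.74 and 10.58 FPKM without amiodarone and at 73.93 and 51.62 with it. These genes were high in both amiodarone libraries to a similar degree.

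Retnlg, a secreted protein of neutrophils, stood at 9.24 FPKM in vehicle and 109.54 in amiodarone, and Cxcr1, an interleukin-8 family receptor, at 0.37 and 12.74. The calcium-binding pair S100a8 and S100a9, which form calprotectin, had ratios of 6.32 (5.25 to 7.65) and 6.14 (5.50 to 6.87). Il1r2, the decoy receptor for interleukin-1, was at 0.71 FPKM in vehicle and 11.65 in amiodarone. The stress cytokine gene Gdf15 went from 1.0 to 12.62 FPKM, and the lipocalin gene Apod from 4.5 to 34.25. Wfdc17 and Wfdc21, small protease-inhibitor-like proteins, and the interferon-inducible GTPase gene Gm12250 completed the 15. In the dabigatran pair, which the choice of genes did not use, 14 of the 15 were at least 2-fold higher, against 1.1% of all genes tested.

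The largest differences on the lower side were smaller and more mixed. Ear1 was at 22.3 FPKM in vehicle, 24.43 in dabigatran, 4.48 in amiodarone and 10.31 in the combination, opposite to its relative Ear6. Ly6d, a surface protein of B cell precursors and squamous epithelium, was at 34.17 FPKM in vehicle, 26.62 in dabigatran, 10.61 in amiodarone and 22.08 in the combination. Aplnr, the apelin receptor of endothelium, was at 24.18 and 22.9 FPKM without amiodarone and at 7.62 and 4.36 with it. Both amiodarone libraries lay below both others for these 3 genes.

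The fat-cell genes Cfd, which encodes complement factor D, and Car3, a carbonic anhydrase, had ratios of 0.339 (0.299 to 0.384) and 0.357 (0.314 to 0.405). Sox4, a transcription factor of progenitor cells, was at 24.92 FPKM in vehicle and 9.87 in amiodarone, and Colq, the collagen-like tail of acetylcholinesterase, at 18.64 and 7.25. Other genes in this group were low or high in a single library. The mesothelial gene Lrrn4 was at 12.92 FPKM in vehicle, 14.71 in dabigatran and 13.85 in the combination, so that amiodarone alone was low at 4.42. Aldh1a2, which makes retinoic acid, was likewise lowest in amiodarone alone, at 6.11 FPKM against 16.97 in vehicle, 13.33 in dabigatran and 14.27 in the combination. The histone gene Hist2h2aa2 rested on the vehicle library, at 12.87 FPKM against 3.97, 2.81 and 3.84 in the others. Of the 15 largest lower differences, 6 were at least 2-fold lower in the dabigatran pair, against 0.41% of all genes tested.

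**Figure D2:**
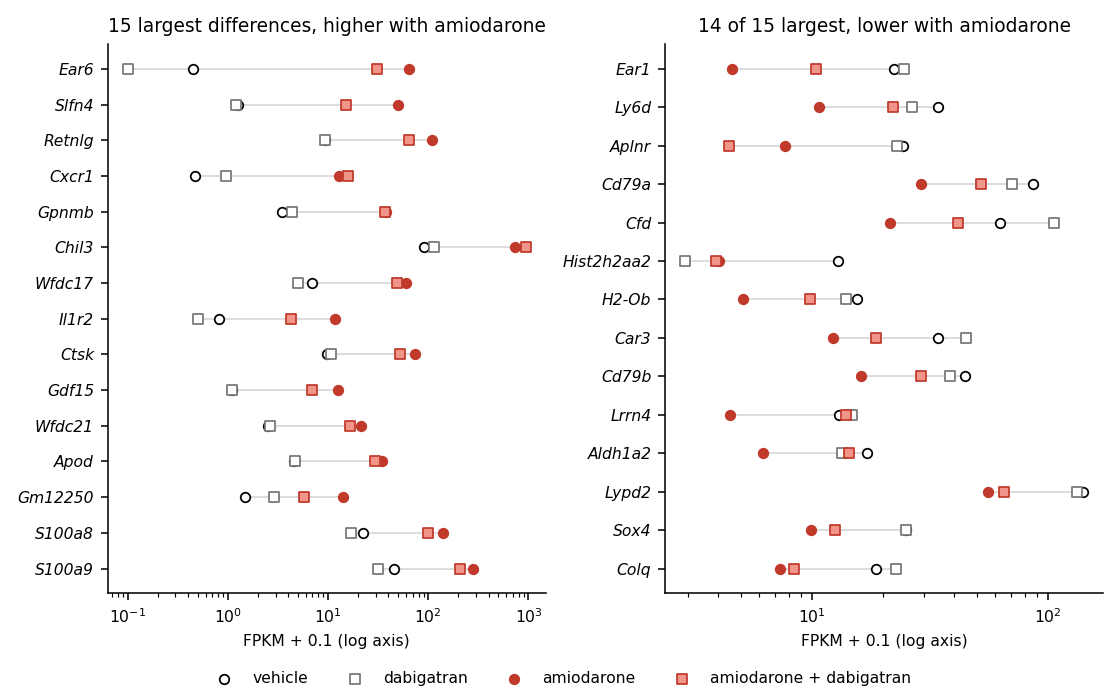
FPKM + 0.1 (log axes) in each of the 4 libraries for the genes with the largest log2 difference in each direction, 15 higher and 14 lower, open symbols without amiodarone and filled symbols with it, circles without dabigatran and squares with it. On the left all filled symbols lie to the right of the open ones, and on the right 11 of 14 genes have both filled symbols to the left, the exceptions being Hist2h2aa2, Lrrn4 and Aldh1a2.

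The genes were then read through 48 lists for cell types and pathways, chosen with earlier results of these data known. The lists cover 119 of the 250 higher and 22 of the 73 lower genes. Medians were at least 1.5-fold higher for 9 lists and at least 1.5-fold lower for 2. The 9 were neutrophil genes, interferon-stimulated genes, interferon-gamma inducible GTPases, glucocorticoid-response genes, monocyte and interstitial macrophage genes, MHC class I genes, chitinase-like genes, foamy macrophage genes and alveolar macrophage genes. The 2 were B cell genes and cardiac muscle genes. With all listed genes in the table and no filter on level, the counts were again 9 and 2, whereas with a filter of 5 FPKM the median of the alveolar macrophage list was 0.53, below 1.5-fold, and 8 lists were left. Autophagy, respiratory chain and cell cycle genes had medians of 0.07, -0.13 and 0.17 and no member called, a count near the share of all genes called. For the list counts that follow, the shares of all genes tested were 1.87% called higher and 0.545% called lower. The interval lay above 1 for 19.6% of all genes and below 1 for 30.1%.

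**Figure D3:**
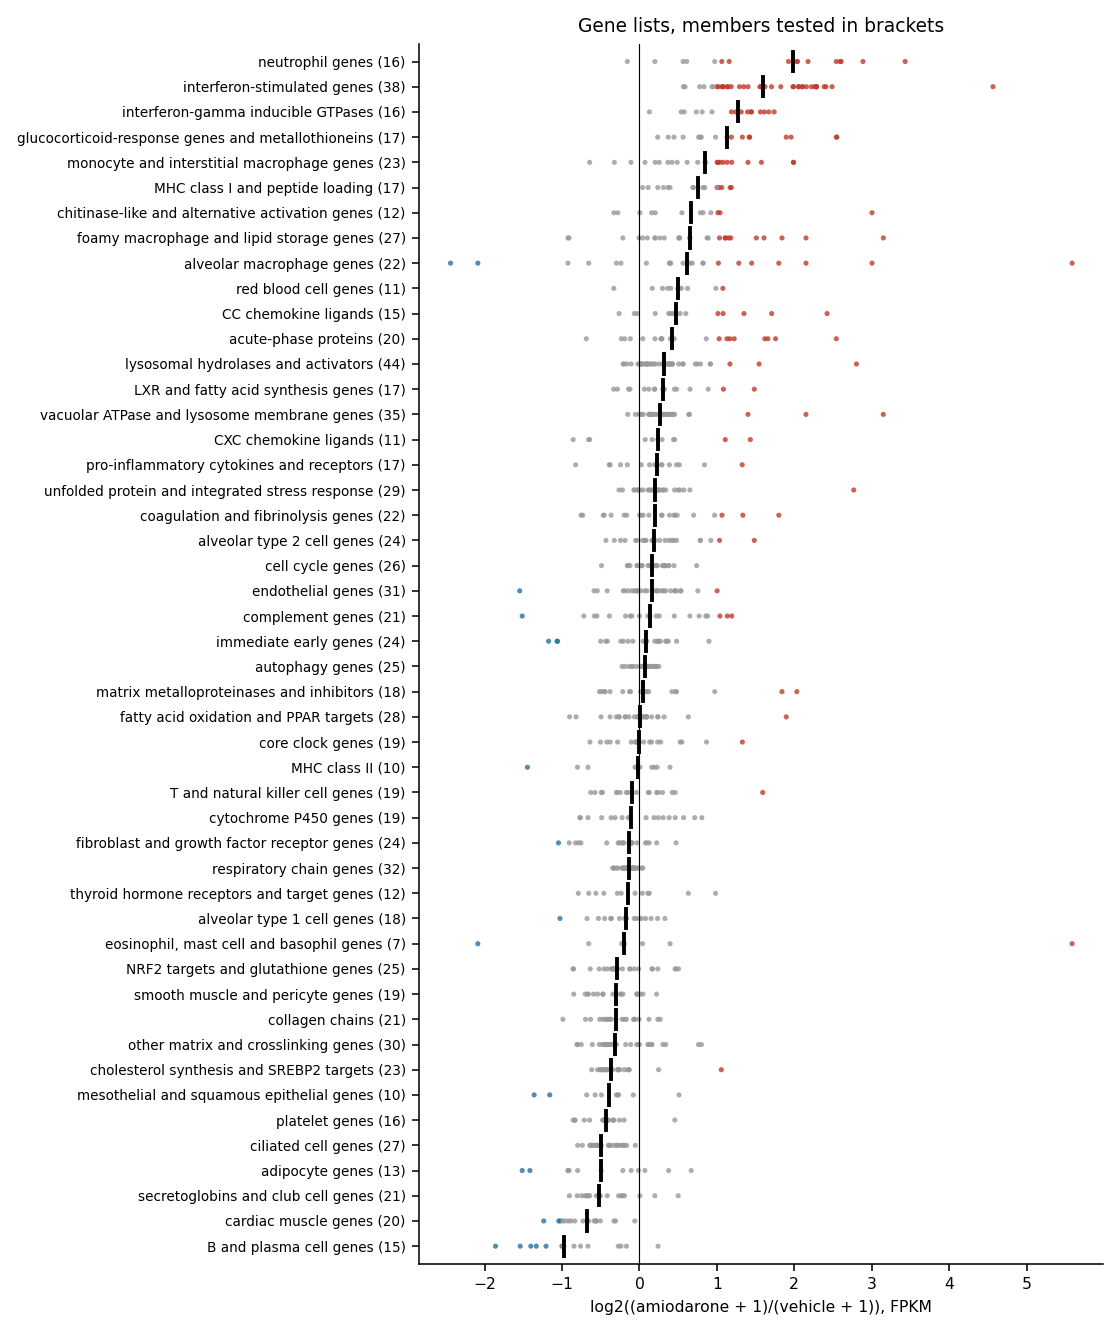
Log2 difference of amiodarone minus vehicle for each tested member of 48 gene lists, 1 point a gene, with the number tested in brackets, red for at least 2-fold higher, blue for at least 2-fold lower and a black bar at the median. Medians run from 1.98 for neutrophil genes to -0.98 for B and plasma cell genes.

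Interferon-stimulated genes, which cells switch on after type I interferon through a dedicated complex of transcription factors, were higher almost as a set. Of 38 tested, 32 were called higher and all 38 had an interval above 1, with a median log2 difference of 1.60 against -0.05 for all genes. Irf7, the interferon regulatory factor that amplifies the response, was at 14.69 FPKM in vehicle, 17.18 in dabigatran, 87.03 in amiodarone and 32.98 in the combination. Ifit1, which binds foreign RNA, was at 7.86, 10.25, 46.06 and 14.09 FPKM in that order, and Rsad2, the antiviral enzyme viperin, at 2.28, 3.15, 16.14 and 6.25. In these 3 genes amiodarone alone was highest and the combination lay between it and the libraries without amiodarone.

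Isg15, a ubiquitin-like modifier, had a ratio of 4.98 (4.16 to 5.99), and Zbp1, a sensor of nucleic acids, one of 5.38 (4.55 to 6.39). In the dabigatran pair the median of the list was 0.39, and 4 of the 38 were called higher there. Both amiodarone libraries were above both others for 32 of the 38, against 22.0% of all genes tested. The level in the combination library was thus above that in the dabigatran library for most members, by less than 2-fold for most.

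The promoters of these genes are known for the interferon-stimulated response element, searched here as GAAANNGAA on both strands in the 250 bases before each RefSeq gene start. A promoter was found for 10656 of the 13402 genes tested (79.5%), so the shares below are a description of those genes only. The element was present in 826 promoters of all genes (7.75%), in 52 of 195 promoters of called higher genes (26.7%) and in 4 of 50 of called lower genes (8.0%). It was present in 16 of 29 promoters of the interferon-stimulated list (55.2%) and in 9 of 9 of the interferon-gamma inducible GTPases. Overlapping matches were counted once a gene. The 120 bases before the start of 6 called genes are shown, chosen because they carry the element, so that it can be seen in place; Slfn4, Irf7 and Oasl2, also among the largest differences of the list, had no match in the 250 bases; capitals mark every match, on either strand, and the coordinates are those of GRCm38.p6 from RefSeq.
Ifit1, chr19:34640769-34640888, plus strand: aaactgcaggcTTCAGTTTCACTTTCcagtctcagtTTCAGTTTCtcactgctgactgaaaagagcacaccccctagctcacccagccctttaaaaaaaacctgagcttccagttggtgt
Rsad2, chr12:26456453-26456572, minus strand: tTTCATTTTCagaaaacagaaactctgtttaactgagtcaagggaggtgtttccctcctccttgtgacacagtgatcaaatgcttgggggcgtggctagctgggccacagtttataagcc
Ifit3, chr19:34583409-34583528, plus strand: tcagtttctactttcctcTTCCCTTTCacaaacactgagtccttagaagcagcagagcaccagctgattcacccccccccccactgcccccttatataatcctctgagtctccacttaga
Isg15, chr4:156200819-156200938, minus strand: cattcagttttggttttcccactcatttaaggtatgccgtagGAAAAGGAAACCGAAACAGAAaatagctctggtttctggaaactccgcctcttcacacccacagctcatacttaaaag
Ifi211, chr1:173913047-173913166, minus strand: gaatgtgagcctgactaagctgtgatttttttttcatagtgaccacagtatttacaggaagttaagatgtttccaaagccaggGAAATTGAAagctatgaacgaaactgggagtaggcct
Oas1a, chr5:120907526-120907645, minus strand: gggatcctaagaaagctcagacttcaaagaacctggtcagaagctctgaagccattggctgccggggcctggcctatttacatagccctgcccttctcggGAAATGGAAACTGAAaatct

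Genes of the interferon-gamma side were higher by less. Of 16 inducible GTPases, which attack vacuoles around intracellular microbes, 10 were called higher and 15 had an interval above 1, with a median of 1.28 and 0.32 in the dabigatran pair. Igtp was at 18.1 FPKM in vehicle, 21.61 in dabigatran, 57.42 in amiodarone and 43.69 in the combination. For MHC class I and peptide loading, 5 of 17 were called and 16 had an interval above 1, among them the peptide transporter Tap1 with a ratio of 2.07 (1.94 to 2.22). B2m, the light chain shared by all class I molecules, was at 1300.94 FPKM in vehicle and 2600.8 in amiodarone and fell just short of the 2-fold threshold. H2-Q genes are near copies of each other, so their split is uncertain.

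MHC class II genes showed no such difference as a set, with a median of -0.02. H2-Ab1 was at 400.99 and 385.29 FPKM, and Cd74, the invariant chain, at 1305.68 and 1489.69. The single called member was H2-Ob, a B cell gene of the class II pathway, at 15.47 FPKM in vehicle and 5.04 in amiodarone. The chemokine genes Cxcl10 and Cxcl9, both known interferon-gamma targets, were called higher at ratios of 4.17 (2.58 to 7.06) and 9.38 (4.54 to 22.5), from 1.15 and 0.16 FPKM in vehicle. Cxcl9 passed the filter on level through the amiodarone library only. They were the 2 calls among 11 CXC chemokine genes tested, of which 6 had an interval above 1 and 3 below. The median of that list was 0.23, and -0.01 in the dabigatran pair. In the dabigatran pair Cxcl10 was at 1.94 and 1.92 FPKM.

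Of 22 neutrophil genes in the table, 16 were tested and 11 called higher, with a median of 1.98 over those tested. The filter on level admitted 4 of the 16 through the amiodarone library only, 3 of them called, so these counts lean on genes that had to be higher. Over all 22 the median was 1.02, and 0.91 in the dabigatran pair. Csf3r, the receptor for the neutrophil growth factor G-CSF, was at 10.29 and 7.4 FPKM without amiodarone and at 45.51 and 41.97 with it. Mmp8, the neutrophil collagenase, was at 1.5 and 1.06 without and 9.23 and 7.88 with amiodarone. Lcn2, an iron-sequestering lipocalin that epithelium also makes, was at 157.16, 154.84, 920.9 and 320.13 FPKM in vehicle, dabigatran, amiodarone and the combination. Ly6g, the defining surface marker, was counted at 0.07 FPKM in vehicle and 1.39 in amiodarone, with a ratio whose interval ran from 3.21 to 820.

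Among secreted inflammatory genes the picture was uneven. Of 20 acute-phase genes 8 were called higher, among them Saa3, at 1.93 FPKM in vehicle and 8.0 in amiodarone, and Lrg1, at 94.71 and 222.51. Of 15 CC chemokine genes 5 were called, among them Ccl6, Ccl3, Ccl4 and Ccl8. Ccl6, a myeloid chemokine, was at 55.4, 65.56, 301.68 and 329.99 FPKM in vehicle, dabigatran, amiodarone and the combination. Ccl3, Ccl4 and Ccl8 stayed below 10 FPKM in every library, at 5.83, 4.43 and 8.83 in amiodarone against 1.09, 1.13 and 3.65 in vehicle. Of 17 pro-inflammatory cytokine and receptor genes 1 was called, Il1b, at 5.05 FPKM in vehicle and 14.18 in amiodarone. Ltb, a lymphotoxin chain of lymphocytes, was at 27.17 and 14.9.

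Macrophage genes were higher in part. In the alveolar macrophage list 7 of 22 were called higher and 2 lower, so its members did not move one way. Besides Ear6 and Chil3, Atp6v0d2, a macrophage subunit of the proton pump, was at 7.44 and 8.43 FPKM without amiodarone and at 36.49 and 40.1 with it. F7, coagulation factor VII, was at 2.52 and 2.99 without and 11.26 and 12.49 with amiodarone. Itgax, the integrin CD11c, had a ratio of 2.58 (2.36 to 2.82). Fabp1, a fatty acid binding protein, was lower together with Ear1, at 5.79 and 5.46 FPKM without amiodarone and 0.25 and 1.58 with it.

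In the monocyte and interstitial macrophage list 10 of 23 were called higher, with a median of 0.85 and 0.80 in the dabigatran pair. Fcgr4, an activating antibody receptor, was at 3.64 and 3.68 FPKM without amiodarone and 17.43 and 18.36 with it. Cd68, a lysosomal macrophage marker, was at 28.58 and 25.79 without and 77.16 and 89.19 with amiodarone, and the complement genes C1qa, C1qb and C1qc had ratios of 2.08, 2.32 and 2.24. In the foamy macrophage and lipid storage list 10 of 27 were called and 21 had an interval above 1. Trem2, a lipid receptor, was at 2.74 and 2.94 FPKM without and 10.41 and 12.2 with amiodarone. Spp1, osteopontin, and Lgals3, galectin-3, had ratios of 2.25 (2.10 to 2.41) and 2.17 (2.08 to 2.27), and Mmp12, macrophage elastase, was at 1.92, 3.1, 9.46 and 6.58 FPKM in vehicle, dabigatran, amiodarone and the combination.

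Many lysosomal genes were higher by small amounts, and a few by more than 2-fold. Of 44 hydrolases and activators 28 had an interval above 1, 4 below and 12 held it, with a median log2 difference of 0.32, and 3 were called: Ctsk, Ctss and Acp5. Ctss, the macrophage protease cathepsin S, was at 77.1 and 80.32 FPKM without amiodarone and at 226.89 and 205.81 with it. Ctsd, cathepsin D, was at 261.94 in vehicle and 494.63 in amiodarone, and Npc2, the cholesterol carrier of the lysosome, at 254.49 and 427.46. Of 35 proton pump and membrane genes 26 had an interval above 1, none below and 9 held it, with a median of 0.26, and the 3 called were Gpnmb, Atp6v0d2 and Cd68. The ubiquitous member Lamp1 had a ratio of 1.32 (1.29 to 1.35). Acp5, an acid phosphatase of macrophages and osteoclasts, was at 13.38 and 14.77 FPKM without amiodarone and at 31.33 and 37.57 with it.

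Many lysosomal genes carry the CLEAR box bound by TFEB, searched as TCACGTGA in the same 250 bases. It was in 183 promoters of all genes (1.72%), 1 of 195 of called higher genes (0.513%), 3 of 35 of the hydrolase list (8.57%) and 4 of 28 of the proton pump and membrane list (14.3%). The 120 bases before the start of 2 genes with the box are shown, with the box in capitals, for comparison with the element above.
Ctsd, chr7:142387828-142387947, minus strand: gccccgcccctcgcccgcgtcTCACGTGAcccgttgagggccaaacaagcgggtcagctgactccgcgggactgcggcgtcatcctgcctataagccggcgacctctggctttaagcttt
Mcoln1, chr8:3500399-3500518, plus strand: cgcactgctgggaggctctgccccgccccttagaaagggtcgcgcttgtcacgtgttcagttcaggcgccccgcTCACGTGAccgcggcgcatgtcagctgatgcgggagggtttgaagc
The sterol response element (TCACNCCAC) was in 123 promoters of all genes (1.15%) and in 1 of 16 of the cholesterol list, and an NF-kB site (GGANTTTCC) in 142 (1.33%) and in 9 of 195 of called higher genes (4.62%).

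Most sterol synthesis genes were lower. Of 23 genes of cholesterol synthesis and SREBP2, the factor that turns the pathway on when sterol is short, 19 had an interval below 1, with a median of -0.37 and -0.31 in the dabigatran pair. Hmgcs1, an early enzyme of the pathway, was at 35.42 and 31.14 FPKM without amiodarone and at 22.75 and 20.33 with it. The largest exception was Pmvk, phosphomevalonate kinase, called higher at 39.99 FPKM against 18.7. Genes of LXR, the oxysterol receptor, and of fatty acid synthesis were mostly higher, with 13 of 17 intervals above 1 and a median of 0.30. Scd1, stearoyl-CoA desaturase, was at 313.98 and 376.39 FPKM without amiodarone and at 879.68 and 1075.35 with it, and Abca1, which exports cholesterol, had a ratio of 1.93 (1.83 to 2.04).

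Glucocorticoid-response genes were higher throughout. All 17 had an interval above 1 and 9 were called, with a median of 1.13 and 0.98 in the dabigatran pair. Fkbp5, a co-chaperone of the glucocorticoid receptor, was at 4.5 and 4.51 FPKM without amiodarone and at 31.21 and 20.66 with it. Zbtb16, a zinc finger factor, was at 5.46 and 7.32 without and 24.1 and 18.9 with amiodarone, and Tsc22d3, which encodes the anti-inflammatory protein GILZ, at 73.31 and 66.93 without and 197.68 and 160.83 with it. The lowest amiodarone library value was above the highest value without the drug in each of the 3. The clock gene Per1, itself glucocorticoid-responsive, had a ratio of 2.58 (2.45 to 2.72), while the clock list as a whole had a median of 0.00 and 1 call.

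The other stress and hormone lists held few calls. Of 24 immediate early genes 3 were called lower, against 0.545% of all genes tested. Nr4a1, an orphan nuclear receptor, was at 81.36 and 115.06 FPKM without amiodarone and at 35.5 and 15.02 with it. Egr1 and Cyr61 were at 74.96 and 189.13 in vehicle against 35.49 and 89.89 in amiodarone. Klf4 was at 54.98 and 103.24, and the list had a median of 0.08 here and -0.55 in the dabigatran pair, where 6 were called lower. Of 29 unfolded protein and integrated stress response genes 16 had an interval above 1, with Gdf15 the only call. Of 25 NRF2 and glutathione genes 16 had an interval below 1 and 6 above, and none was called. The median of that list was -0.29, and -0.03 in the dabigatran pair. The NRF2 target Nqo1 was at 6.72 and 7.04 FPKM without amiodarone and 3.28 and 3.56 with it. Thyroid hormone receptor and target genes were of interest because amiodarone carries iodine. Of 12 tested, 6 had an interval below 1 and 3 above, against 30.1% and 19.6% of all genes tested. Klf9, also a glucocorticoid target, was at 39.22 FPKM in vehicle and 78.49 in amiodarone, and Thrb, a thyroid hormone receptor, at 3.39 and 1.97.

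B cell genes had the lowest median, -0.98, with 6 of 15 called lower and 13 intervals below 1. Cd79a, a signalling chain of the B cell receptor, was at 86.09 FPKM in vehicle, 70.71 in dabigatran, 28.92 in amiodarone and 51.9 in the combination. Cd79b was at 44.29, 38.52, 16.12 and 29.0 in that order, and Pax5, the factor that holds B cell identity, at 7.06, 7.39, 2.2 and 5.16. Amiodarone alone was lowest for all 3, and the median of the list in the dabigatran pair was -0.44, with none called there. Among called lower genes outside the list, the B cell receptor for BAFF, Tnfrsf13c, had 4.74 FPKM in vehicle and 1.52 in amiodarone, Spib 9.95 and 3.63, Bank1 5.26 and 1.45, and the follicle-homing receptor Cxcr5 7.04 and 2.94. These 4 were picked from genes already called lower, after their values were seen, so their direction adds nothing to that of the list. T and natural killer cell genes had a median of -0.10 and 1 call, Gzmb, at 2.93 FPKM in vehicle, 7.53 in dabigatran, 10.85 in amiodarone and 7.25 in the combination.

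**Figure D4:**
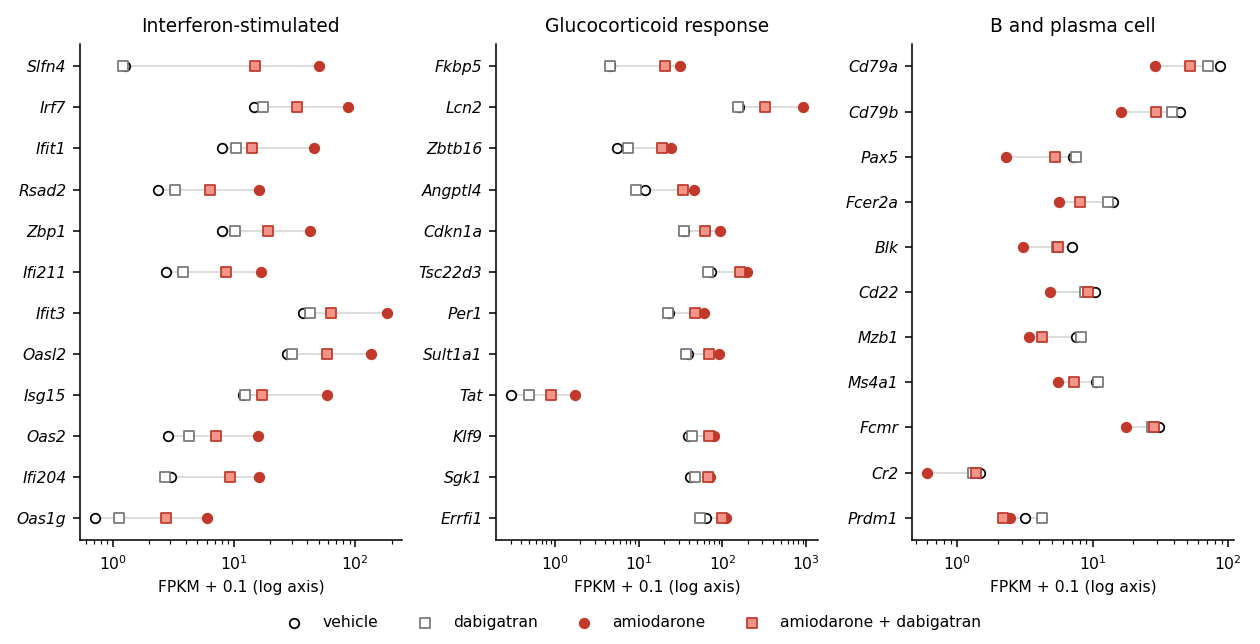
FPKM + 0.1 (log axes) in each library for the members of largest difference in 3 lists (12, 12 and 11 genes), open symbols without amiodarone and filled symbols with it, circles without dabigatran and squares with it. For the interferon-stimulated genes the filled square lies between the filled circle and the open symbols, as for Irf7 (32.98 FPKM), and for B cell genes it lies between them or among the open symbols for all but Prdm1, whereas for Fkbp5 and Tsc22d3 it lies nearer to the filled circle.

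In the airway, most club and ciliated cell genes were lower by small amounts. Of 21 secretoglobin and club cell genes 17 had an interval below 1, with a median of -0.52. In the dabigatran pair the median was -0.39 and 4 were called lower, against 0.41% of all genes tested. Both amiodarone libraries were below both others for 17 of the 21, against 31.5% of all genes tested. Scgb1a1, the club cell secretory protein, was at 124168 FPKM in vehicle, 99032 in dabigatran, 73994 in amiodarone and 97786 in the combination. It took 5.10% of all reads in vehicle (95% interval 5.08 to 5.11) and 3.04% in amiodarone (3.03 to 3.05), the largest loss of any gene, and was at 4.05% and 4.02% in the dabigatran pair. Scgb1a1 thus differed more between the 2 libraries without amiodarone than within the dabigatran pair. The P450 gene Cyp2f2, the carbonyl reductase gene Cbr2, Sec14l3 and the aldehyde dehydrogenase gene Aldh1a1 had the next largest losses of read share. Of 27 ciliated cell genes 26 had an interval below 1, with a median of -0.49 and -0.14 in the dabigatran pair; Tppp3, a tubulin-binding protein, was at 523.5, 467.88, 338.74 and 396.41 FPKM in vehicle, dabigatran, amiodarone and the combination.

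Alveolar type 2 cell genes had 18 of 24 intervals above 1 and a median of 0.19. Sftpd, the collectin surfactant protein D, was at 480.52 and 476.81 FPKM without amiodarone and at 828.21 and 593.72 with it, and Sftpb had a ratio of 1.16 (1.15 to 1.17). Scd1, a lipid enzyme of these cells, also had the largest gain of read share, from 0.151% to 0.422%, followed by Epas1, Lyz2, Hbb-bs and Ly6e. Alveolar type 1 cell genes had 12 of 18 intervals below 1, and the one call was Igfbp2, a binding protein for insulin-like growth factors, at 254.99 and 311.64 FPKM without amiodarone and 124.59 and 158.47 with it.

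Most collagen, other matrix and smooth muscle genes had an interval below 1, and none of these lists had a called member. Of 21 collagen chains 15 had an interval below 1 and 3 above, with a median of -0.31 and -0.35 in the dabigatran pair, where 1 was called lower. That was Col3a1, a fibrillar collagen, at 95.56 and 121.03 FPKM without amiodarone and at 47.65 and 59.89 with it, and Col1a1 was at 93.44 and 72.13 in vehicle and amiodarone. Of 30 other matrix and crosslinking genes 18 had an interval below 1 and 8 above, the latter including Lox, lysyl oxidase, with a ratio of 1.80 (1.67 to 1.93). Acta2, smooth muscle actin, was at 180.84 and 171.05 FPKM without amiodarone and at 99.91 and 121.44 with it, and 13 of the 19 smooth muscle and pericyte genes had an interval below 1. The growth factor receptor gene Fgfr4 was the only call among 24 fibroblast and growth factor receptor genes, at 14.9 FPKM in vehicle and 6.7 in amiodarone.

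Genes of tissue other than lung parenchyma also differed. Of 20 cardiac muscle genes 19 had an interval below 1 and 3 were called lower, with a median of -0.67; Actc1, cardiac actin, was at 413.11 FPKM in vehicle, 325.74 in dabigatran, 174.69 in amiodarone and 182.82 in the combination. Of 13 adipocyte genes 2 were called lower and 7 had an interval below 1, and the fat hormone gene Adipoq was at 4.13, 6.85, 1.95 and 2.61 FPKM. In the mesothelial and squamous list 9 of 10 intervals lay below 1, but the median in the dabigatran pair was 0.10; Upk3b, a mesothelial gene, was at 44.58, 44.48, 19.41 and 45.21. How much heart, fat and pleura each piece of tissue carried was not tested.

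Blood genes did not repeat between the pairs. Of 16 platelet genes 13 had an interval below 1, with a median of -0.43 against 0.30 in the dabigatran pair, and the platelet chemokine gene Ppbp was at 31.77 FPKM in vehicle, 40.3 in dabigatran, 17.1 in amiodarone and 52.38 in the combination. Of 11 red blood cell genes 10 had an interval above 1, with a median of 0.49 against -0.38 in the dabigatran pair. The adult beta-globin gene Hbb-bs was at 4561, 5337, 6645 and 2540 FPKM. Among 31 endothelial genes 18 had an interval above 1 and 7 below, with a median of 0.17 against -0.23 in the dabigatran pair. Of these, Aplnr was called lower and Lyve1, a hyaluronan receptor of lymphatic vessels and of macrophages, higher. Lyve1 was at 103.58 and 208.53 FPKM in vehicle and amiodarone.

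Of the called genes, 131 of the higher and 51 of the lower belonged to none of the lists, and the following were picked from them after their values were seen. Tyrobp and Fcer1g, the signalling adaptors of myeloid receptors, were at 86.35 and 95.12 FPKM in vehicle and 183.43 and 195.56 in amiodarone. The paired myeloid receptor genes Lilrb4a and Cd300lf were at 12.58 and 4.1 in vehicle and 57.39 and 25.62 in amiodarone. Socs3, the feedback inhibitor of interleukin-6 signalling, was at 12.29 and 38.66, and Cebpd, a transcription factor of the acute-phase response, at 47.1 and 126.4. Rgcc, a cell cycle regulator, was among the more abundant, at 86.97 and 75.31 FPKM without amiodarone and at 320.37 and 232.14 with it. On the lower side Wnt10b, a Wnt ligand, was at 6.87 and 7.08 without and 1.2 and 2.26 with amiodarone, and Sfrp2, a secreted Wnt modulator, at 8.45 and 9.06 without and 2.03 and 6.13 with it. Hamp, which encodes hepcidin, was at 61.01 FPKM in vehicle and 28.64 in amiodarone. The muscle genes Ankrd1 and Ldb3, outside the cardiac list, were at 35.43 and 30.03 FPKM in vehicle and 14.42 and 13.65 in amiodarone.

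Called genes often lay beside each other. Of the 248 called higher genes with a position in the RefSeq table, 93 (37.5%) had another called higher gene within 100 kb, against 5.76% of all genes with a position, and among the 73 called lower genes 13 (17.8%) had one, against 2.13%. Many of these neighbours are duplicated families with related sequence, so that position and function are not separate observations. The largest group was 6 Ly6 family genes at chr15:74979534-75159128, all 6 genes tested in that span, with log2 differences from 1.16 to 2.59; Ly6a, known as Sca-1, was at 398.52 FPKM in vehicle and 915.32 in amiodarone. Groups of 5 were the Ifi200 genes at chr1:173468485-173767069 (of 6 tested in the span), the chemokine and Wfdc genes at chr11:83587886-83752646 (of 5) and the Ms4a genes at chr19:11321039-11604804 (of 9). Groups of 4, each with 4 or 5 tested in the span, were the Slfn genes on chromosome 11, the Oas genes on chromosome 5 and, on chromosome 8, Mcf2l with the coagulation genes F7, F10 and Proz. The one group of 3 on the lower side was Lypd2, Slurp2 and Ly6d at chr15:74732246-74763567, close to the higher Ly6 genes; Lypd2 was at 141.05 and 132.32 FPKM without amiodarone and at 55.92 and 64.91 with it.

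In the pair with dabigatran on both sides, the called higher genes were also higher, by less. Of the 250, 233 (93.2%) had the same sign there, against 47.2% of all genes tested, 101 (40.4%) passed 2-fold, against 1.1%, and the median was 0.84. Of the 73 lower genes 64 (87.7%) had the same sign, against 52.4%, 17 (23.3%) passed 2-fold, against 0.41%, and the median was -0.52. Both sets were chosen by their difference in the main pair, so a smaller difference in a second pair can come from that choice. The choice was not separated from the presence of dabigatran.

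The groups of lists differed in how much of the difference was seen there. For the 11 called neutrophil genes the median was 2.18 in the main pair and 2.11 in the dabigatran pair, and 9 passed 2-fold there. Over all 16 neutrophil genes tested the medians were 1.98 and 1.47, but 4 of the 16 entered through the amiodarone library only. Over all 22 in the table, with no filter on level, they were 1.02 and 0.91. In the dabigatran pair 10 of the 16 were called higher and 1 lower. Summed FPKM of the 16 was 1621 in amiodarone and 834.4 in the combination. Lcn2, which epithelium also makes, was the largest part of both sums. For the 28 called macrophage and lipid storage genes the medians were 1.24 and 1.28, and 17 passed. For the 9 called glucocorticoid-response genes they were 1.42 and 1.04, and 6 passed. For the 47 called interferon and antigen presentation genes they were 1.56 and 0.45, and 4 passed, and for the 6 called B cell genes -1.37 and -0.44, with none passing. Medians over called genes carry the same limit, since the main pair chose those genes. Whether these differences between groups exceed the spread between mice cannot be tested with 1 library each.

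**Figure D5:**
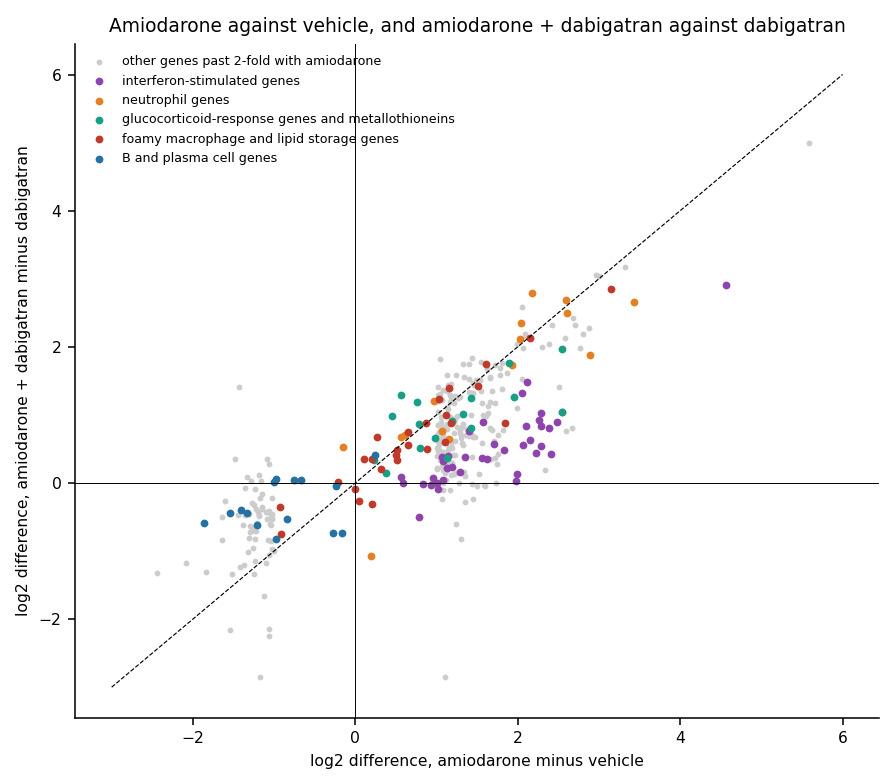
Log2 difference of amiodarone + dabigatran minus dabigatran (vertical axis) against amiodarone minus vehicle (horizontal axis) for every tested member of 5 lists (colours) and for all other called genes (grey), with a dashed line where both are equal. Foamy macrophage genes had list medians of 0.65 and 0.56, and neutrophil genes 1.98 and 1.47. Over all 22 neutrophil genes in the table, with no filter on level, the medians were 1.02 and 0.91. The interferon-stimulated genes lie below the line, with list medians of 1.60 and 0.39.

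Low counts limited a minority of the calls. Among the higher genes 21 had fewer than 10 reads in the vehicle library and 5 had none: Gm4184, LOC100043921, Mrgpra2b, Nutf2-ps2 and Zfp973, with 11.9 to 41.3 reads in amiodarone. Among the lower genes 6 had fewer than 10 reads in amiodarone and 4 had none: Gm10698, LOC100861618, Tmem81 and Zfp965, with 12.1 to 36.2 reads in vehicle. Zfp965 is a zinc finger gene beside the related Gm4724 on chromosome 2, where reads can be split between copies. At the entry threshold, 1700056E22Rik was just inside at 1.0 FPKM in vehicle and 0.18 in amiodarone, and Adamts17 just outside at 0.99 and 0.69.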

How the data were processed

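Poly(A)+ RNA of left lung was sequenced by DNBSeq, with 1 library for each of 4 groups. The authors mapped clean reads to GRCm38.p6 with HISAT and Bowtie2 and estimated expression with RSEM. The deposited table gives estimated counts per gene and an expression value. The unit of that value is not given in the sources used here and was read as FPKM by the authors' own scaling: reads per unit differed between the 2 libraries by a median factor of 1.07, equal to the ratio of total reads. A total of 8 deposited columns of means over 2 libraries were not used.

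For the 13402 genes that reached 1 FPKM in one library or both, the log2 of FPKM was compared with a pseudocount of 1, and 2-fold was called. Estimated counts were rounded to whole reads, and an exact Clopper-Pearson 95% interval of their ratio was scaled to FPKM gene by gene, or by total reads where a value was 0. A count of 0 allows up to 3 reads. No test across groups was possible with 1 library each. The symbol Plin2 was on 2 rows, and the row with more reads was used. The code was tested on simulated data.

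Genes named are the 15 largest differences each way among genes that reached 10 FPKM, the members of largest difference and the defining members of each list, the 5 largest gains and losses of read share, and tissue markers; exceptions are stated, and a few genes are not reported here. The gene lists, motifs and members were chosen with earlier results of these data known. Gene positions and promoters came from RefSeq on GRCm38.p6. The analysis used Python 3.11.15, numpy 2.4.6, pandas 2.3.3 and scipy 1.17.1. Alternatives covered the pseudocount, filters, thresholds, rescaling, distances and windows.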

Additional observations from a re-analysis of the deposited data

Results flagged for a closer look

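Among the called genes, 2 were past 2-fold in opposite directions in the pair without and the pair with dabigatran. Clca1, a goblet cell secreted protein, was at 3.53 FPKM in vehicle, 8.72 in amiodarone, 13.99 in dabigatran and 1.08 in the combination. Its log2 difference was 1.10 without and -2.85 with dabigatran, a gap of 3.95. Gm4724 was at 2.77, 0.40, 0.78 and 3.73 FPKM in the same order, with log2 differences of -1.43 and 1.41 and a gap of -2.84. It has near copies, so its level is uncertain. The differences between the pairs were not tested, since each rests on 1 library a group.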

How the results depend on the processing

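Counts of called genes moved with threshold and filter. The higher genes numbered 582 at 1.5-fold, 87 at 3-fold and 166 with a filter of 10 FPKM, against 250. The lower genes numbered 527, 7 and 37, against 73, and 221 with a pseudocount of 0.1 and 115 from reads scaled to library size only. Against the vehicle library, the combination library gave 157 higher genes, an alternative chosen after seeing the data. The share of called genes past the threshold in the dabigatran pair was 68.0% of the higher and 47.95% of the lower genes when 1.5-fold was taken there. The other counts of called genes, including those under both rescalings, stayed within 1.5 times the main value. So did counts without the members of the heart, fat, red cell and platelet lists, which left in unlisted muscle genes such as Ankrd1 and Ldb3. Counts of lists, also with no filter (chosen after seeing the data), stayed within the same bound. At 50 kb the share of all genes with a called higher neighbour was 3.48% in place of 5.76%, and with 300 bases the CLEAR box was in 1.03% of called higher promoters in place of 0.513%. The 30 genes of largest difference kept their direction in all 90 values computed under median-ratio rescaling, a pseudocount of 0.1 and reads scaled to library size. Of 196 list medians recomputed, 190 kept their sign, and the 6 that did not belonged to lists within 0.15 of 0: MHC class II, T and natural killer cell, fatty acid oxidation, clock and thyroid genes. The causes of these shifts were not tested. No paired analysis was possible because each group holds 1 library. Depth limits low genes most, and 1 library a group leaves the spread between mice unmeasured.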
